A study of Mus musculus with 17 samples.

Results

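Expression of 6 transcription factor genes of the surface ectoderm, Gata2, Gata3, Dlx3, Dlx5, Grhl2 and Grhl3, was measured in sorted cells of mouse neural tube organoids. The genes were chosen by symbol, matched to Ensembl identifiers, and are 6 of the 49671 genes counted. The cells were R1 mouse embryonic stem cells with a FOXA2-Venus reporter genotype, and each library held either FOXA2-positive or FOXA2-negative cells. FOXA2 is a forkhead factor of the floor plate, the strip of cells along the ventral neural tube. All cells had received retinoic acid (RA) for 18 hours. The RA groups are labelled with those 18 hours alone. The BMP4 and LDN groups had a further 6 hours without treatment and then 8 hours of bone morphogenetic protein 4 or of the agent labelled LDN, a name in common use for inhibitors of BMP type I receptors that the labels do not spell out. Since the RA labels give no later hours, treatment and time cannot be told apart in comparisons with RA. There were 3 libraries in each of 5 groups and 2 in FOXA2-positive LDN, numbered 2 and 3, giving 17 in all. The series is built on 1 cell line, and the labels do not say whether replicate libraries were prepared from different cultures. The p-values therefore measure only the spread among these libraries, which could be technical.

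In the early embryo, BMP signals act through SMAD transcription factors and favour surface ectoderm over neural fate, and GATA2, GATA3, DLX3 and DLX5 are among the factors that become expressed at the neural plate border and in non-neural ectoderm. GATA2 and GATA3 are zinc finger proteins that bind GATA motifs, and both also act in trophoblast and blood. DLX3 and DLX5 are distal-less homeodomain proteins. GRHL2 and GRHL3, grainyhead-like factors, control epithelial junction and barrier genes and are required for neural tube closure.

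Between 8435845 and 10796136 counts per library were assigned to genes, so 3 counts, the limit that a count of 0 allows, stood for 0.278 to 0.356 CPM (counts scaled to the same total of gene counts in every library), from counting error only. Foxa2 followed the labels. It lay between 18.4 and 43.3 CPM in the 8 FOXA2-positive libraries and between 0 and 2.92 CPM in the FOXA2-negative libraries. The marker lists of neural progenitors and of pluripotent cells both had counts in every group as sums, but not gene by gene. In FOXA2-positive LDN cells Dppa5a had 296 of a mean of 348 CPM summed over pluripotency genes, and Nanog was at 0. Ncam1 had 598 of 933 CPM summed there over neural progenitor genes. Summed CPM over 8 neural progenitor genes ranged from 354 to 973 by library and over 10 pluripotency genes from 333 to 1153. The 2 RA libraries numbered 1 stood apart, with 6.95% and 7.43% of counts from mitochondrial genes against at most 4.81% elsewhere, so results that rest on RA are also given without them where that changes a call. All 6 genes passed the filter on low counts. In bulk libraries, fewer cells of a type and less RNA per cell cannot be told apart.

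Promoter sequence was available from RefSeq (GRCm38.p6) for 3 of the 6 genes, Gata2, Gata3 and Grhl3. The 250 bases upstream of a RefSeq start of each are shown. Availability decided which genes are shown, so they are not a chosen contrast. Gata3 and Gata2 were called higher under BMP4 than under LDN in FOXA2-positive cells. The fitted difference of Grhl3 there was below 0. Capitals mark the palindrome GGCGCC, a GC-rich sequence bound by SMAD proteins.
Gata3, chr2:9878601-9878850, minus strand: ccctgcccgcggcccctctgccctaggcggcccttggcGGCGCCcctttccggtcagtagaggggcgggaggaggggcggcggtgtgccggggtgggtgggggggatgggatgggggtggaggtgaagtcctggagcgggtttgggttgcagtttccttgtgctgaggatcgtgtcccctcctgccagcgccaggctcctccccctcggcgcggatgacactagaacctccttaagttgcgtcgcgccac
Gata2, chr6:88193641-88193890, plus strand: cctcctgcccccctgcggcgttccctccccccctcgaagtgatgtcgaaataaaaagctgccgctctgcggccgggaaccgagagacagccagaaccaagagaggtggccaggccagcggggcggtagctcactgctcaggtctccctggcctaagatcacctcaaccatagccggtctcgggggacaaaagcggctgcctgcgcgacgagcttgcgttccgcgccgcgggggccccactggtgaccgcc
Grhl3, chr4:135573633-135573882, minus strand: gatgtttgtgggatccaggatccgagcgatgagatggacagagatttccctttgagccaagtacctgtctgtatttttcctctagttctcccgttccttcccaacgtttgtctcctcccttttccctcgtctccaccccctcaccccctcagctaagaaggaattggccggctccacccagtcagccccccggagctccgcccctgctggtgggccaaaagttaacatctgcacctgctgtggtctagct
GGCGCC occurred once in the Gata3 window and in neither of the other two windows, and on either strand it was found in 9.59% of 32851 RefSeq windows of the same length. The AP-2 palindrome GCCNNNGGC occurred 3 times in the Gata3 window and was present in 13.7% of all windows. The Gata3 window lies inside the longer span that GENCODE gives for Gata3, in no Gata3 exon, and all of its 250 bases overlap an exon of the antisense gene Gm13256. A CCAAT box, found on either strand in 33.8% of windows, was present once in the Grhl3 window. AGATAA (9.99% of windows), GTCTNGAC (1.47%) and AACCNGTT (1.79%) were in none of the 3 windows. A second RefSeq start of Gata2 has its window at chr6:88198414-88198663, inside an exon of Gata2, with 1 GGCGCC, 1 GCCNNNGGC and 2 CCAAT boxes. GC content was 70.0% for Gata3, 67.2% for the upstream Gata2 window and 56.0% for Grhl3, against a median of 52.4% over all windows. A match is only an occurrence of these letters, and no binding was measured.

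The GATA genes were highest in the BMP4 groups. Gata2 (ENSMUSG00000015053; GRCm38 chromosome 6, 88193891 to 88207032, plus strand) was at 56.4, 54.1 and 62.4 CPM in FOXA2-negative BMP4 libraries 1 to 3 and at 28.8, 31.4 and 56.0 CPM in the FOXA2-positive ones. Under LDN it was at 15.3, 6.29 and 33.3 CPM in FOXA2-negative and at 0.834 and 4.54 CPM in FOXA2-positive libraries. The RA libraries gave 27.9, 25.2 and 14.1 CPM in FOXA2-negative and 5.60, 5.55 and 1.34 CPM in FOXA2-positive cells. All 6 BMP4 libraries were therefore above 10 of the 11 others, and the exception was FOXA2-negative LDN library 3, at 33.3 CPM. The order of group means was FOXA2-negative BMP4 (57.7 ± 4.29 CPM; SD, n = 3), FOXA2-positive BMP4 (38.7 ± 15.1, n = 3), FOXA2-negative RA (22.4 ± 7.30, n = 3), FOXA2-negative LDN (18.3 ± 13.8, n = 3), FOXA2-positive RA (4.16 ± 2.45, n = 3) and FOXA2-positive LDN (2.69 ± 2.62, n = 2). The libraries of both BMP4 groups overlapped, as did both FOXA2-negative groups under RA and LDN, and both FOXA2-positive groups under RA and LDN.

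Gata3 (ENSMUSG00000015619; chromosome 2, 9857078 to 9890034, minus strand) had a different order, with FOXA2-positive BMP4 cells first. Its libraries there were at 67.2, 65.2 and 71.3 CPM, and those of FOXA2-negative BMP4 at 31.9, 47.7 and 54.3 CPM. RA gave 19.3, 26.7 and 27.3 CPM in FOXA2-positive and 15.8, 14.6 and 21.1 CPM in FOXA2-negative cells. The LDN libraries were at 4.08 and 15.7 CPM in FOXA2-positive and at 7.73, 9.67 and 8.52 CPM in FOXA2-negative cells. BMP4 libraries lay above every RA and LDN library in both fractions. Group means were 67.9 ± 3.13 (n = 3) and 44.6 ± 11.5 CPM (n = 3) under BMP4, 24.4 ± 4.47 (n = 3) and 17.1 ± 3.43 CPM (n = 3) under RA, and 9.87 ± 8.19 (n = 2) and 8.64 ± 0.977 CPM (n = 3) under LDN, FOXA2-positive first. Within RA and within LDN, the 2 fractions overlapped.

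Dlx3 (ENSMUSG00000001510; chromosome 11, 95120119 to 95125296, plus strand) had its high values in FOXA2-negative cells of every treatment. Its FOXA2-negative libraries were at 30.9, 30.2 and 25.7 CPM under BMP4, 21.7, 30.3 and 8.88 CPM under RA, and 19.7, 14.3 and 18.8 CPM under LDN. The FOXA2-positive libraries were at 9.93, 12.4 and 8.23 CPM under BMP4, 9.41, 8.66 and 6.27 CPM under RA, and 2.41 and 3.06 CPM under LDN. Only RA library 3 of the FOXA2-negative cells fell within the range of FOXA2-positive libraries, and the 2 FOXA2-positive LDN libraries were the lowest of all 17. Means were 28.9 ± 2.86, 20.3 ± 10.8 and 17.6 ± 2.90 CPM (SD, n = 3 each) in FOXA2-negative BMP4, RA and LDN. FOXA2-positive means were 10.2 ± 2.08 (n = 3) under BMP4, 8.12 ± 1.64 (n = 3) under RA and 2.74 ± 0.464 CPM (n = 2) under LDN. BMP4 and RA overlapped in both fractions.

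Dlx5 (ENSMUSG00000029755; chromosome 6, 6877805 to 6882085, minus strand) was highest under BMP4 in both fractions. FOXA2-negative BMP4 libraries were at 39.6, 34.1 and 44.8 CPM, and FOXA2-positive ones at 37.4, 15.4 and 17.8 CPM, so 1 library of the second group reached the first. Under RA the values were 19.1, 9.41 and 8.77 CPM in FOXA2-negative and 8.52, 11.1 and 7.51 CPM in FOXA2-positive cells. Under LDN they were 3.76, 6.58 and 11 CPM in FOXA2-negative and 1.85 and 6.36 CPM in FOXA2-positive cells. The LDN libraries overlapped those of RA in FOXA2-negative cells and lay below them in FOXA2-positive cells. Means were 39.5 ± 5.36 and 23.5 ± 12.0 CPM (n = 3 each) under BMP4, 12.4 ± 5.77 and 9.04 ± 1.86 CPM (n = 3 each) under RA, and 7.12 ± 3.67 (n = 3) and 4.10 ± 3.18 CPM (n = 2) under LDN, FOXA2-negative first.

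The grainyhead genes did not share the high BMP4 levels. Grhl2 (ENSMUSG00000022286; chromosome 15, 37233036 to 37363569, plus strand) lay between 5.56 and 19.7 CPM in all 17 libraries, with group means from 7.49 ± 2.15 CPM in FOXA2-positive BMP4 (n = 3) to 15.3 ± 1.17 CPM in FOXA2-negative RA (n = 3). In FOXA2-negative cells it was at 14.0, 15.8 and 16.2 CPM under RA, 17.1, 14.0 and 5.56 CPM under BMP4, and 19.7, 5.80 and 14.0 CPM under LDN. In FOXA2-positive cells it was at 6.72, 15.7 and 18.9 CPM under RA, 5.58, 9.81 and 7.06 CPM under BMP4, and 7.87 and 8.4 CPM under LDN. The FOXA2-negative LDN libraries alone ran from 5.80 to 19.7 CPM, a wider range than that of the group means.

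Grhl3 (ENSMUSG00000037188; chromosome 4, 135541888 to 135573630, minus strand) was highest in FOXA2-negative RA cells, at 17.5, 16.3 and 17.1 CPM. All other libraries were lower, at 11.8 CPM or less. FOXA2-negative cells had 8.30, 5.66 and 5.85 CPM under BMP4 and 11.8, 4.35 and 6.58 CPM under LDN. FOXA2-positive cells had 2.35, 7.15 and 3.19 CPM under RA, 2.87 and 5.90 CPM under LDN, and 6.24, 0.102 and 1.45 CPM under BMP4. The value of 0.102 CPM is a single count, below the limit of 3 counts. Means were 17 ± 0.639 (RA), 7.58 ± 3.83 (LDN) and 6.60 ± 1.47 CPM (BMP4) in FOXA2-negative cells (n = 3 each), and 4.39 ± 2.14 (LDN, n = 2), 4.23 ± 2.56 (RA, n = 3) and 2.60 ± 3.23 CPM (BMP4, n = 3) in FOXA2-positive cells.

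**Figure D1:**
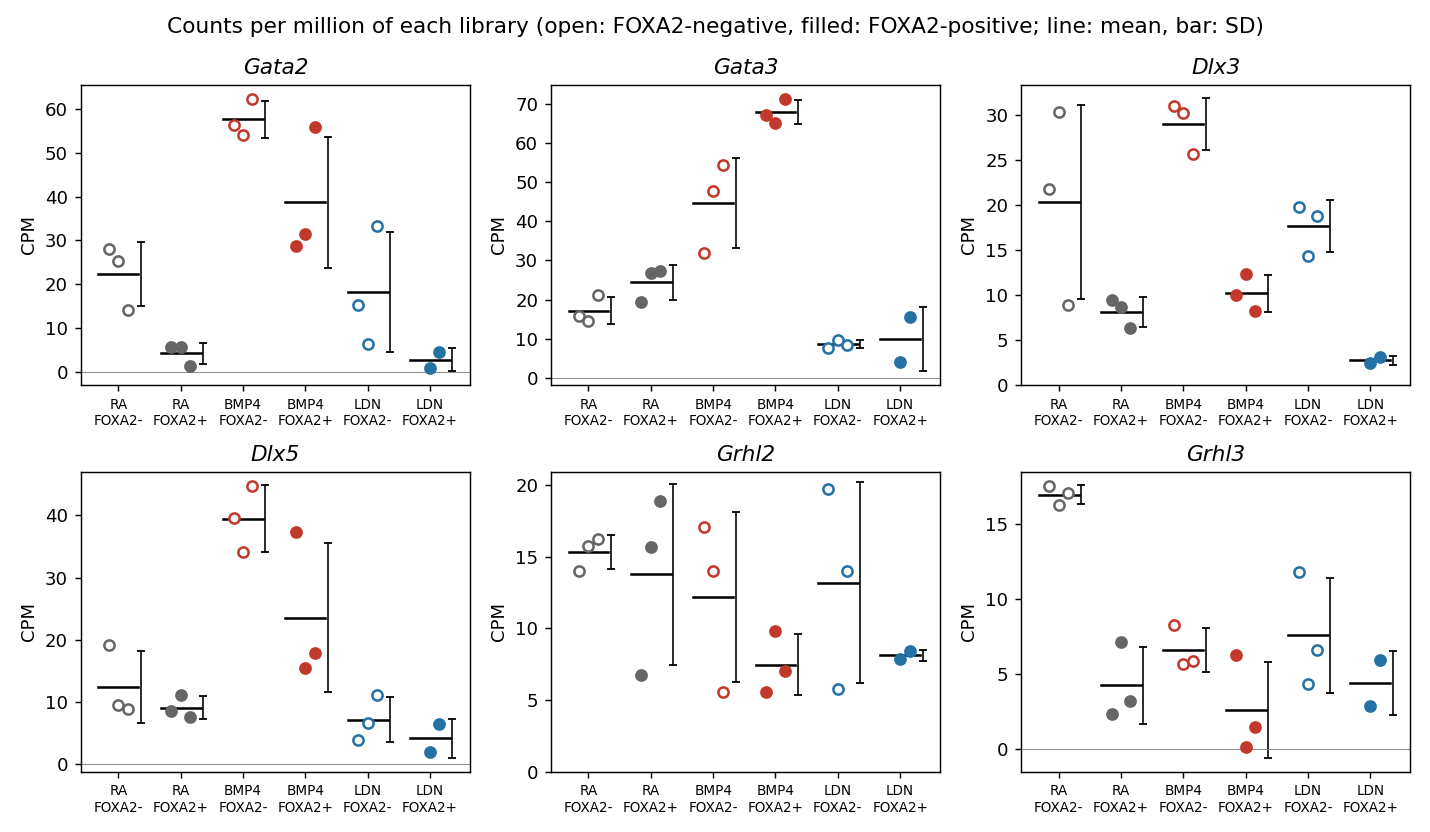
CPM (linear axis) of the 6 genes in each of the 17 libraries by group, with the mean as a line and the SD as a bar. The BMP4 libraries of Gata3 sit between 31.9 and 71.3 CPM, above all others, while those of Grhl2 and Grhl3 lie at 17.1 CPM or less.

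Levels were compared between genes as CPM per kilobase of annotated exon. In FOXA2-negative BMP4 cells Dlx5 had the highest mean, 17.4 CPM per kilobase, followed by Gata3 (11.2), Dlx3 (11.1) and Gata2 (10.7), and then by Grhl3 (2.37) and Grhl2 (1.42). In FOXA2-positive BMP4 cells Gata3 came first at 17.1 CPM per kilobase, before Dlx5 (10.4), Gata2 (7.17), Dlx3 (3.90), Grhl3 (0.932) and Grhl2 (0.869). In FOXA2-positive LDN cells Gata3 was again first, at 2.48 CPM per kilobase, and Gata2 last, at 0.498. In each BMP4 group the GATA and DLX genes thus stood above both grainyhead genes on this per-length scale.

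The BMP4 and LDN arms had the same labelled timing, and their comparison addresses how each gene stood with BMP4 added against the LDN agent. In FOXA2-negative cells Gata3 and Dlx5 were higher under BMP4. In FOXA2-positive cells Gata3 and Gata2 were higher. No member passed in the direction of LDN in either fraction, and the fitted differences of Grhl2 and Grhl3 were below 0 in both.

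In FOXA2-negative cells Gata3 rose by 2.33 ± 0.35 on the log2 scale (SE; adjusted p = 0.000836, edgeR's quasi-likelihood test with Benjamini-Hochberg adjustment over 17813 genes). It passed in all 13 alternative analyses, with differences from 2.19 to 2.53 and adjusted p up to 0.0122. Dlx5 rose by 2.43 ± 0.47 (adjusted p = 0.0178). Its call was lost without BMP4 library 1 (adjusted p = 0.0546), BMP4 library 3 (0.0837), LDN library 1 (0.136) or LDN library 2 (0.114), and adjusted p ranged from 1.4e-05 to 0.136 over 13 alternatives. These were 2 of the 6 genes, where 0.196% of all genes tested were called and 0.124% were called higher. Since the genes were picked with earlier results of these data known, that count is a description. Gata2 differed by 1.62 ± 0.56 (adjusted p = 0.552, 95% interval 0.44 to 2.80), and its 3 BMP4 libraries all lay above its 3 LDN libraries. For Dlx3 the difference was 0.69 ± 0.38 (adjusted p = 0.724, interval -0.10 to 1.47), again without overlap of the libraries. The intervals of Grhl2 (-1.14 to 0.86) and Grhl3 (-1.75 to 1.29) lay on both sides of 0. Libraries did not overlap for 4 of the 6 genes, all higher under BMP4, against 5.98% of all genes separated in that direction. The median difference of the 6 genes was 1.15, and that of all genes 0.

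In FOXA2-positive cells Gata3 rose by 2.73 ± 0.42 (adjusted p = 0.000802), and it passed in all 12 alternatives, with differences from 2.03 to 4.04 and adjusted p up to 0.0392. Gata2 rose by 3.81 ± 0.76 (adjusted p = 0.0294). The Gata2 call was lost without BMP4 library 3 (adjusted p = 0.0675), without LDN library 2 (difference 3.01, adjusted p = 0.247) or without both RA libraries numbered 1 (0.0518), with adjusted p from 2.59e-14 to 0.247 over 12 alternatives. The share of all genes called was 0.32%, and 0.236% were called higher, beside 2 of these 6 genes. Dlx5 differed by 2.47 ± 0.56 (adjusted p = 0.0524, interval 1.31 to 3.63), close to the threshold, and passed in 6 of 12 alternatives, among them without LDN library 3 (3.64, adjusted p = 0.0275). Dlx3 differed by 1.85 ± 0.48 (adjusted p = 0.127, interval 0.86 to 2.83). The intervals were -1.29 to 0.96 for Grhl2 and -2.52 to 0.90 for Grhl3. Again 4 of 6 genes had no overlap between libraries and were higher under BMP4, against 13.2% of all genes with 3 against 2 libraries. The median difference of the 6 genes was 2.16, and that of all genes 0.01.

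**Figure D2:**
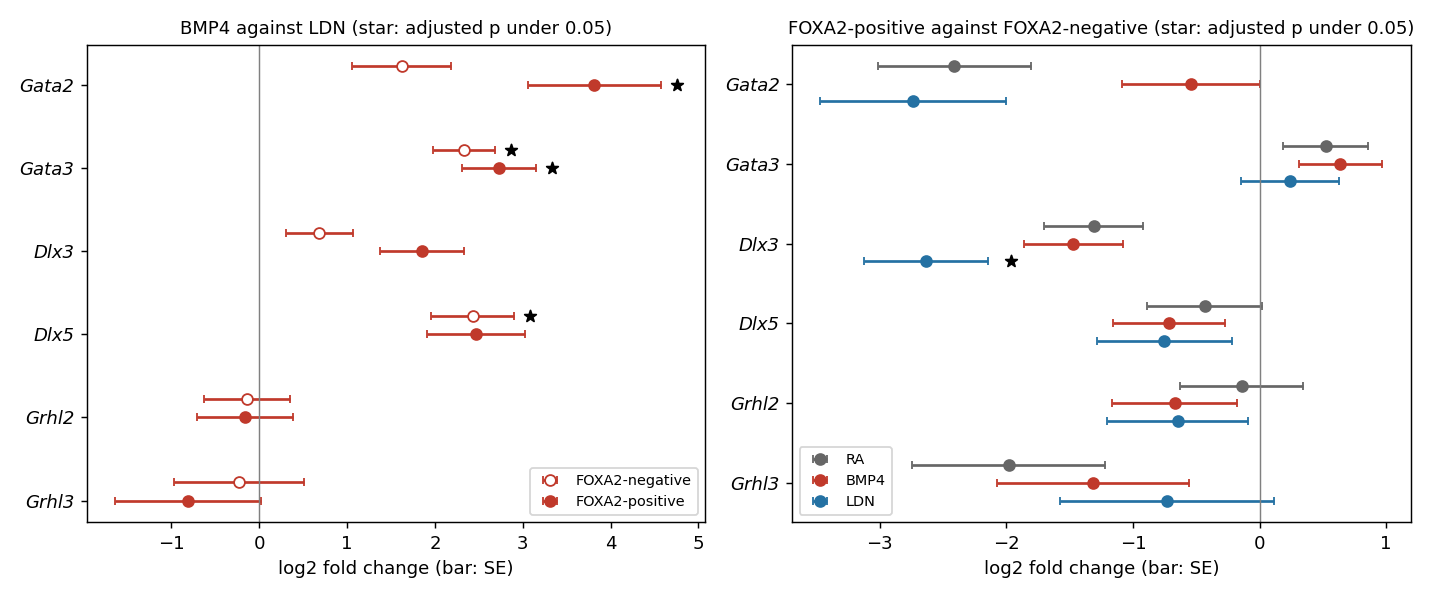
Log2 fold changes of the 6 genes from edgeR, with the SE as a bar and a star where the adjusted p was under 0.05, for BMP4 against LDN (left; open points FOXA2-negative, filled points FOXA2-positive cells) and for FOXA2-positive against FOXA2-negative cells (right; colours show the treatment). Gata3 has a star in both BMP4 against LDN comparisons (2.33 and 2.73), and the bars of Grhl2 cross 0 in both.

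Whether the BMP4 against LDN difference itself depended on the fraction was tested with an interaction term. No member passed (0 of 6 by edgeR and 0 by DESeq2, 1 at an unadjusted p under 0.05). Of all genes, 0.0337% passed in edgeR, 0.212% in DESeq2 and 6.18% at the unadjusted p. Among 18 alternatives, 1 passed for Gata2, that with no filter on low counts (adjusted p = 0.0224), and the others ran up to an adjusted p of 0.934. The unadjusted p under 0.05 belonged to Gata2, whose difference was larger in FOXA2-positive cells by 2.19 ± 0.89 (unadjusted p = 0.0239, adjusted p = 0.779). For Dlx3 the excess was 1.16 ± 0.60 (adjusted p = 0.812). Gata3 and Dlx5 gave 0.40 and 0.04. The calls for Gata2 in one fraction and Dlx5 in the other are thus not by themselves evidence of a difference between fractions.

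No member passed the test against RA, a group that serves as control for both BMP4 and LDN, so these comparisons share libraries. For BMP4 against RA, edgeR called 0 of 6 genes in either fraction, where 0.0786% of all genes were called in FOXA2-negative and the same share in FOXA2-positive cells. At an unadjusted p under 0.05 there were 3 genes in each fraction, where 7.36% (FOXA2-negative) and 5.6% (FOXA2-positive) of all genes had one. DESeq2 called 1 gene in FOXA2-negative cells, where it called 0.466% of all genes, and 2 in FOXA2-positive cells, where it called 0.325%. In FOXA2-positive cells Gata2 differed by 3.23 ± 0.61 (adjusted p = 0.0577), the nearest to the threshold. Gata3 differed by 1.38 in FOXA2-negative (adjusted p = 0.217) and by 1.5 in FOXA2-positive cells (0.122), and Dlx5 by 1.68 (0.313) and 1.4 (0.686). The BMP4 libraries of Gata2, Gata3 and Dlx5 lay above the RA libraries of the same fraction without overlap, and in FOXA2-negative cells those of Grhl3 lay below them, with a difference of -1.36 (adjusted p = 0.675). Of all genes, 4.88% and 5.14% were separated upwards in FOXA2-negative and FOXA2-positive cells, and 5.64% downwards in FOXA2-negative cells.

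For LDN against RA, edgeR called 0 of 6 genes in both fractions, where 0.0393% of all genes were called in FOXA2-negative and 0.208% in FOXA2-positive cells. DESeq2 called 0 in both, against 0.219% and 1.5% of all genes. An unadjusted p under 0.05 was found for 1 gene in FOXA2-negative cells (7.5% of all genes) and 2 genes in FOXA2-positive cells (9.35% of all genes). Gata3 differed by -0.96 (adjusted p = 0.619) and -1.24 (0.26), and its LDN libraries lay below those of RA in both fractions. The LDN libraries of Grhl3 in FOXA2-negative cells, and of Dlx3 and Dlx5 in FOXA2-positive cells, also lay below those of RA. With Gata3 these were 2 and 3 of the 6 genes. Of all genes, 6.96% in FOXA2-negative and 16.7% in FOXA2-positive cells were separated in that direction. Dlx3 differed by -0.17 (adjusted p = 0.98) in FOXA2-negative and -1.5 (0.255) in FOXA2-positive cells. Gata2 differed by -0.25 and -0.58, with adjusted p of 0.979 and 0.863.

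The sorted fractions were compared within each treatment. Dlx3 was lower in FOXA2-positive than in FOXA2-negative cells under LDN, by 2.63 on the log2 scale. In RA, where deviations of same-numbered libraries correlated, Gata2 was lower in FOXA2-positive cells once the number was used as a block. That correlation does not establish that the numbers mark pairs. Gata3 was the 1 member whose fitted difference was above 0 in all 3 treatments, and it did not pass in any of them.

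Under LDN, Dlx3 fell by 2.63 ± 0.49 (adjusted p = 0.00537), and it was 1 of 6 genes called, where 0.994% of all genes were called and 0.707% were called lower. That call was lost without LDN library 2 (adjusted p = 0.112) or library 3 (0.0576) of the FOXA2-positive group. In either case a single library, assumed to vary like the others, stood for that group, and adjusted p ranged from 1.44e-05 to 0.112 over 13 alternatives. Gata2 differed by -2.74 ± 0.73 (adjusted p = 0.0974). Neither gene's libraries overlapped, and 16.2% of all genes were separated in that direction. In BMP4 cells edgeR called 0 of 6 genes, where 0.921% of all genes were called. DESeq2 called 1 (3.0% of all genes) and 1 had an unadjusted p under 0.05 (10.8% of all genes), in each case Dlx3, with a difference of -1.47 ± 0.39 (adjusted p = 0.0736 by edgeR). The Gata2 difference there was -0.54 ± 0.55 (adjusted p = 0.817), and its libraries overlapped.

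In RA cells 0 of 6 genes were called by edgeR without a block, 2 by DESeq2 and 3 at an unadjusted p under 0.05. The shares of all genes were 1.19%, 2.97% and 10.7%. Gata2 differed by -2.41 ± 0.60 (adjusted p = 0.0602). When pairs of same-numbered libraries were blocked, it was lower by 2.55 with an adjusted p of 4.94e-05, while over 14 alternatives the adjusted p ranged from 4.75e-09 to 0.24, the last without both RA libraries numbered 1. Grhl3 differed by -1.98 ± 0.76 (adjusted p = 0.303, interval -3.55 to -0.42) and Dlx3 by -1.31 ± 0.39 (adjusted p = 0.123). The FOXA2-negative libraries of Gata2 and Grhl3 lay above all FOXA2-positive ones, where 8.3% of all genes were separated in that direction. Gata3 differed by 0.52 ± 0.34 in RA (adjusted p = 0.626), 0.64 ± 0.33 in BMP4 (0.489) and 0.24 ± 0.39 in LDN (0.886). Grhl2 differed by -0.14, -0.67 and -0.65 in RA, BMP4 and LDN, and its interval in RA was -1.14 to 0.86.

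Gata2 and Dlx5 lie on chromosome 6, where expressed genes were shifted towards the FOXA2-positive cells. The median difference over 335 chromosome 6 genes with at least 20 CPM was 0.31 for RA cells, 0.34 for BMP4 and 0.24 for LDN. The fraction differences of Gata2 had the opposite sign to that shift in all 3 treatments. Chromosome 8, which holds none of the 6 genes, was shifted the other way. Its medians over 407 genes were -0.31 for RA cells, -0.30 for BMP4 and -0.27 for LDN. Medians of all remaining chromosomes lay between -0.046 and 0.099. Between BMP4 and LDN the chromosome 6 median was 0.01 in FOXA2-negative and 0.11 in FOXA2-positive cells. The part of these shifts in the results was not tested.

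Other members of the 3 families were mostly at low levels. The tested relatives were Gata1, Gata4, Gata5, Gata6, Dlx1, Dlx2, Dlx4, Dlx6 and Grhl1. EdgeR called 0 of these 9 in any of the 10 comparisons. Between BMP4 and LDN, an unadjusted p under 0.05 was found for 4 of 9 in FOXA2-negative cells, with 3 of them higher under BMP4, and for 2 in FOXA2-positive cells, both higher. Of all genes, 7.06% and 7.37% had such a p. DESeq2 called 2 and 1 of the relatives, and 0.836% and 1.19% of all genes. The median difference of the 9 relatives was 1.59 in FOXA2-negative and 2.12 in FOXA2-positive cells.

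Dlx6, the neighbour of Dlx5 on chromosome 6, was at 5.22, 6.09 and 14.6 CPM in FOXA2-negative BMP4 libraries and at 2.93, 4.50 and 2.81 CPM in FOXA2-positive ones. In the 5 LDN libraries it was at 1.35 CPM or less, with 0 counts in 3 of them. BMP4 and LDN libraries of Dlx6 did not overlap in either fraction (adjusted p = 0.376 and 0.311). Dlx2 was at 6.4, 7.37 and 4.98 CPM in FOXA2-negative BMP4 cells, where the LDN libraries had 0, 0 and 0.677 CPM (difference 4.67 ± 1.39, adjusted p = 0.307). In FOXA2-positive cells it was at 14.4, 7.87 and 6.10 CPM under BMP4 and at 1.11 and 3.06 CPM under LDN. Gata6, an endoderm and heart factor, had means of 28.6 ± 16.6 CPM (n = 3) in FOXA2-positive BMP4 and 1.07 ± 0.73 CPM (n = 2) in FOXA2-positive LDN cells (difference 4.69 ± 1.44, adjusted p = 0.349). Grhl1 had its highest mean in FOXA2-negative BMP4 cells, 10.2 ± 3.06 CPM (n = 3), against 4.14 ± 2.10 CPM (n = 3) under LDN.

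**Figure D3:**
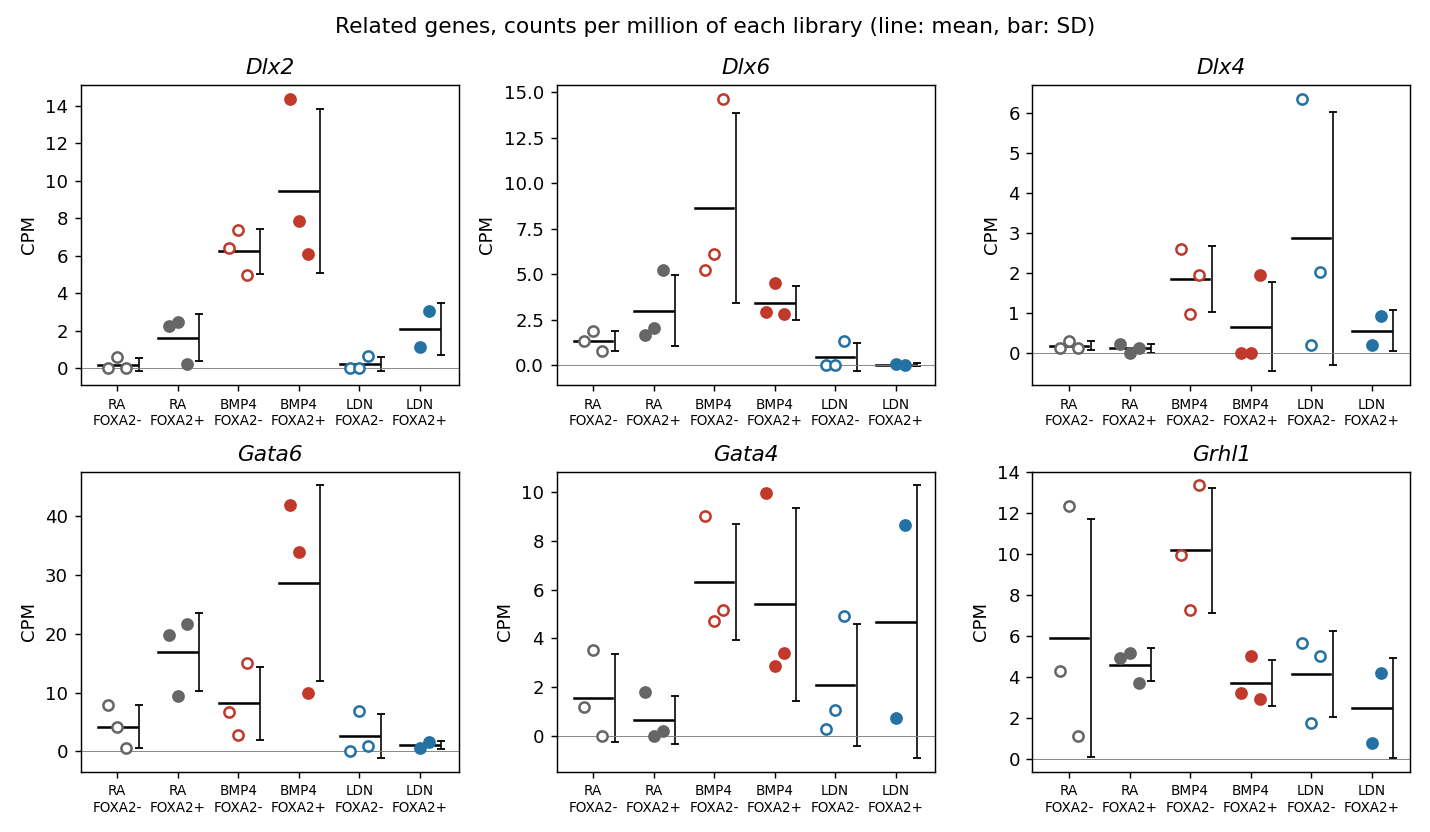
CPM (linear axis, its own range for each gene) of 6 related genes in the 17 libraries by group, with the mean as a line and the SD as a bar. Dlx2 lies between 4.98 and 14.4 CPM in the BMP4 libraries and at 3.06 CPM or less elsewhere, and Dlx6 is at 1.35 CPM or less in all LDN libraries.

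Gm13256, which runs antisense over Gata3 and includes its promoter window, had 518 counts in all. Its group means were 5.55 ± 2.99 CPM in FOXA2-negative BMP4, 7.53 ± 2.55 CPM in FOXA2-positive BMP4, and between 0.668 and 1.96 CPM in the RA and LDN groups. The BMP4 against LDN differences were 3.0 ± 1.07 (adjusted p = 0.543) and 2.42 ± 1.21 (adjusted p = 0.676). How strand was treated in counting is not given in the sources used here, so reads of Gata3 and Gm13256 cannot be told apart where they overlap. The antisense genes over Grhl2, Gm16136 and Gm16137, had 345 and 8 counts. No annotated gene overlapped Gata2, Dlx3, Dlx5 or Grhl3.

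Genes known as partners of these factors in surface ectoderm moved in part with them. Of 16 tested partner genes, 3 rose under BMP4 against LDN in FOXA2-negative cells: Tfap2a, which encodes an AP-2 factor of ectoderm and neural crest, by 2.58 ± 0.40 (adjusted p = 0.00401), and the homeobox genes Msx1 by 2.88 ± 0.32 (0.000293) and Msx2 by 2.90 ± 0.44 (0.00104). In FOXA2-positive cells 7 of 16 rose: Tfap2a (4.08 ± 0.53), Tfap2c (1.75 ± 0.30), Msx1 (2.28 ± 0.37), Msx2, Klf5 (1.28 ± 0.28) and the keratin genes Krt18 (0.88 ± 0.19) and Krt19 (2.70 ± 0.43). Msx2 had 0 counts in both FOXA2-positive LDN libraries and a mean of 25.9 CPM in the BMP4 ones. Msx1 and Msx2 are also on the list of BMP and SMAD targets below. No partner was called lower in either comparison, where edgeR called 0.196% and 0.32% of all genes. At an unadjusted p under 0.05, 5 partners were higher and 5 lower in FOXA2-negative cells. In FOXA2-positive cells 9 were higher and 0 lower. Of all genes, 7.06% and 7.37% had such a p. Of 7 tested genes of the preplacodal region, Sox3, also a neural progenitor gene, fell under BMP4 against LDN in FOXA2-positive cells (-1.95 ± 0.42, adjusted p = 0.0316) and the others did not pass. Of 7 tested neural crest genes, Pax3 rose in FOXA2-negative cells (2.56 ± 0.47, adjusted p = 0.0098). Of 7 tested neural progenitor genes, Sox1 fell in FOXA2-negative cells (-2.50 ± 0.41, adjusted p = 0.00253). Ncam1, of the same list, fell in FOXA2-positive cells (-1.10 ± 0.24, adjusted p = 0.0497). The median difference of the 16 partners was -0.46 in FOXA2-negative and 1.39 in FOXA2-positive cells, so in FOXA2-negative cells the partner list as a whole lay below 0 although its 3 calls were higher.

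Between fractions, 4 of 16 partners fell in FOXA2-positive RA cells (Tfap2a, Tfap2c, Msx2 and Krt8) and 7 in FOXA2-positive LDN cells (those 4 with Klf5, Krt18 and Wnt6). Of all genes, 1.19% and 0.994% were called in these comparisons. Under BMP4, Tfap2c fell by 1.38 and Krt19 rose by 1.62. The interaction of fraction with BMP4 against LDN was above 0 and passed for 3 of 16, Msx2, Krt18 (1.42 ± 0.26, adjusted p = 0.0324) and Tfap2c (2.28 ± 0.38, adjusted p = 0.013). Among genes of stratified or placodal surface ectoderm, Krt14 had 1 count in the whole series and Foxi1 had none. Trp63 had its highest group mean, 1.11 CPM, in FOXA2-negative LDN cells and 0 counts in the BMP4 groups, and Krt5 had 5.02 CPM in FOXA2-negative LDN cells and at most 1.46 CPM in the other groups. The name surface ectoderm is used here for the 6 factors, not for a cell type.

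For the grainyhead genes, 16 epithelial genes known as GRHL targets were tested, among them Cdh1, which encodes the adhesion protein E-cadherin, and claudin genes of tight junctions. In RA cells 4 of 16 fell in the FOXA2-positive fraction: Cdh1 by 0.90 ± 0.19 (adjusted p = 0.0122), Cldn4 by 1.62 ± 0.31 (0.00637), Rab15 by 1.36 ± 0.29 (0.0162) and the protease gene St14 by 1.27 ± 0.30 (0.0303). EdgeR called 0 of 16 between fractions under BMP4 or LDN. There 7 and 6 had an unadjusted p under 0.05, all lower in FOXA2-positive cells, against 10.8% and 11.2% of all genes. DESeq2 called 4 and 2, against 3.0% and 3.55% of all genes. The median difference between fractions was -0.65 for RA, -0.63 for BMP4 and -0.64 for LDN, where that of all genes lay between -0.03 and 0. Between BMP4 and LDN edgeR called 0 of 16 in both fractions, with 5 and 4 at an unadjusted p under 0.05, all lower under BMP4, and 0 and 1 by DESeq2, beside the shares of all genes given for the relatives.

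Direct targets of BMP and SMAD signalling gave the readout of the pathway in the same libraries. Of 14 tested, 7 rose under BMP4 against LDN in FOXA2-negative cells and 7 in FOXA2-positive cells, where 0.196% and 0.32% of all genes were called. Msx1 and Msx2 are among these calls in both fractions and were already counted among the partner genes, so the lists are not separate. Fitted differences were above 0 for 13 and 12 of the 14. Id1, an inhibitor of helix-loop-helix factors, rose by 5.66 ± 0.35 and 4.84 ± 0.39 (adjusted p = 4.92e-10 and 1.07e-07). Smad7, an inhibitor of the pathway, rose by 3.23 ± 0.47 and 5.15 ± 0.63. The median difference of the 14 was 3.26 in FOXA2-negative and 3.08 in FOXA2-positive cells. The fitted differences of Gata3 and Dlx5 were below these medians in both fractions, and that of Gata2 was below in FOXA2-negative and above in FOXA2-positive cells.

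Over the 17 libraries, the genes whose log2 CPM followed each member most closely were found among 9840 genes with at least 5 CPM on average. For Gata3 they were Msx1 (Pearson r = 0.904), Id3 (0.897) and Id2 (0.877), and for Gata2 they were Tfap2a (0.885), Zfp36l3 (0.85) and Msx2 (0.845). Dlx5 was followed by Cux2 (0.891), Tfap2a (0.855) and Lbr (0.847), and Dlx3 by Tex19.1 (0.886) and Alpl (0.886). Grhl3 was followed by Mybl2 (0.889), Nexmif (0.859) and Erbb3 (0.814), and Grhl2, less closely, by Aldh2 (0.771), Osgep (0.761) and Aes (0.751). Between members, r was highest for Dlx5 with Gata3 (0.803), Dlx5 with Gata2 (0.793) and Dlx3 with Gata2 (0.767), and lowest for Gata3 with Grhl3 (-0.381). These values describe 17 libraries in 6 groups that differ in treatment and fraction, and carry no test.

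Markers of other cells that use the same factors were also summed by library. Over 10 trophoblast genes the summed level was 116 to 150 CPM in FOXA2-negative and 47.1 to 58.7 CPM in FOXA2-positive RA cells, 130 to 194 and 79.4 to 142 CPM under BMP4, and 151 to 244 and 38 to 44.2 CPM under LDN. Of the 9 tested, Tfap2c, also a surface ectoderm factor, fell in FOXA2-positive cells of all 3 treatments, and between BMP4 and LDN Cdx2 rose in FOXA2-negative cells (2.57 ± 0.42, adjusted p = 0.00242). Elf5 had 8 counts in the whole series. The 10 pluripotency genes summed to 835 to 1153 CPM in FOXA2-negative and 333 to 445 CPM in FOXA2-positive RA cells, 709 to 1036 and 486 to 556 CPM under BMP4, and 726 to 990 and 342 to 353 CPM under LDN. Of these, 5, 6 and 7 were called lower in FOXA2-positive cells in RA, BMP4 and LDN. The shares of all genes called there were 1.19%, 0.921% and 0.994%. Fitted differences were above 0 for 2 of the 10 under BMP4 and for 0 in RA and LDN. Tbx3, a T-box gene of that list, also rose under BMP4 against LDN, by 2.73 ± 0.24 in FOXA2-negative and 5.16 ± 0.32 in FOXA2-positive cells. The summed level of 10 endoderm genes went the other way, from 7.00 to 40.8 CPM in FOXA2-negative and from 51.5 to 132 CPM in FOXA2-positive libraries. Fitted differences were above 0 for 9, 5 and 7 of the 10 genes in RA, BMP4 and LDN. Of the 10, only Sox17 was called, higher in FOXA2-positive cells in RA (2.72 ± 0.56, adjusted p = 0.0101) and in LDN (2.54 ± 0.57, adjusted p = 0.0241). Of 5 tested floor plate genes, only Foxa2 itself was called between fractions, in each treatment. The endoderm list includes Gata4 and Gata6, which did not share the direction of the sum throughout. In FOXA2-positive cells the mean of Gata4 was lower under RA and BMP4 and higher under LDN, and that of Gata6 was lower under LDN only. Blood and endothelial genes summed to 22.5 to 37.6 CPM in FOXA2-negative and 3.36 to 11.4 CPM in FOXA2-positive RA cells, 14.8 to 31.4 and 6.77 to 15.9 CPM under BMP4, and 3.97 to 28.6 and 7.69 to 12.1 CPM under LDN, with Cdh5 at 0. Of 7 tested, Pecam1, an adhesion gene of endothelium and also of embryonic stem cells, fell in FOXA2-positive cells in RA (-3.74 ± 0.74, adjusted p = 0.0076) and in LDN (-5.10 ± 1.02, adjusted p = 0.0103). V2 interneuron genes to at most 25.7 CPM with Sox14 at 0, and forebrain interneuron genes, which include Dlx1, Dlx2 and Dlx6, to at most 43.1 CPM. The part of these cell markers in the fraction differences of Gata2, Dlx3 and Grhl3 was not tested.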

How the data were processed

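SMART-Seq v2 libraries were made from FOXA2-positive and FOXA2-negative cells, per the labels' protocols. The authors deposited raw counts by Ensembl gene, in 1 table for each of 17 libraries. Per the submitters' processing notes, the tools included cutadapt 1.18, UMI-tools 1.0.0, HTSeq 0.11.2 and DESeq2 1.26.0, on build mm10. Not given in the sources used here: the aligner, the annotation release and the strand setting. Each table held 49671 genes and 5 summary lines, which took 49.3% to 54.4% of tallied reads and were left out. Symbols and coordinates came from GENCODE M21 on GRCm38, which matched 49412 genes. No libraries of a group were near duplicates (chi-square per degree of freedom at least 15.4).

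Groups were taken from library titles. Differences were tested with edgeR 4.0.16 in R 4.3.3. The filter filterByExpr (at least 10 counts, total at least 15) retained 17813 genes. After TMM scaling, 1 robust quasi-likelihood model was fitted to the 6 groups (11 residual degrees of freedom, common biological coefficient of variation 0.632). P-values were adjusted by Benjamini and Hochberg's method over all genes, and 0.05 was the threshold. An adjusted p is from this test unless another tool is named. The SE is the log2 fold change over the root of F, which is approximate, and intervals are 95%. Levels are CPM of the library's gene counts, as mean ± SD. The scripts were run on simulated counts with known changes. The spread set there was smaller than in these data, so that run does not show how well changes in the 6 genes are found.

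The 6 genes and the gene lists were chosen with earlier results of these data known, so no list carries a test of its own. The genes that could be named were the members, their relatives, genes overlapping them and list genes that passed the test, of which only part are named. Krt5, Krt14, Trp63, Foxi1, Elf5, Cdh5 and Sox14 were named after their values were seen. Over libraries, the 3 genes most like each member were those with the highest Pearson r. For Dlx3, a gene that this rule selects is not reported here. Same-numbered RA libraries of both fractions correlated in their deviations from group means at 0.587, 0.24 and 0.277 over 6664 genes. These values were above 0.1 in every pair, so the Gata2 difference in RA is also given with the number as a block. The main fit had no block, and RA differences come from it unless a block or another alternative is named. Deviations within a group cancel out, so a shift shared by the RA libraries numbered 1 also enters the other correlations. The check cannot tell pairing of every number from such a shift. In BMP4 and LDN the correlations were at most 0.0785. Alternatives were DESeq2 1.42.0, no filter or a stricter filter (5 CPM in 2 libraries), RLE scaling, the replicate block, models with only the compared groups, each library left out in turn, and both RA libraries numbered 1 left out.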

Additional observations from a re-analysis of the deposited data

How the results depend on the processing

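Over all alternatives, 737 member values kept their direction and side of the threshold, 34 gained a call, 9 lost one and 30 changed sign. None of the values that changed sign was called. Counts of called genes over the whole table moved more. DESeq2 called 486, 476 and 545 genes between fractions in RA, BMP4 and LDN (212, 164 and 177 in edgeR), 137 and 189 between BMP4 and LDN in FOXA2-negative and FOXA2-positive cells (35 and 57), 74 and 55 between BMP4 and RA (14 and 14), 45 and 230 between LDN and RA (7 and 37), and 38 for the interaction (6). With no filter on low counts the same 10 comparisons gave 466, 411, 460, 141, 196, 94, 100, 83, 294 and 54 genes. Models of the compared groups alone gave 127 genes between fractions in RA, 95 between BMP4 and LDN in FOXA2-positive cells, 3 and 25 between BMP4 and RA, and 4 and 9 between LDN and RA. Without both RA libraries numbered 1 there were 109 between fractions in RA, 53 between BMP4 and LDN in FOXA2-negative cells, and 9 and 9 between BMP4 and RA.

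The replicate block within treatment gave 362 genes between fractions in RA and 282 in BMP4. The correlations of same-numbered libraries in BMP4 and LDN were at most 0.0785, which does not settle whether the numbers mark pairs. A replicate block over all libraries gave 6 genes between BMP4 and RA in FOXA2-negative cells. With the block within treatment, Gata2 between fractions under LDN (adjusted p = 0.000829) and Dlx3 under BMP4 (0.0418) also passed, and Gata3 under LDN was -0.092.

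Leaving out single libraries gave 105 to 219 genes between fractions in RA, 61 to 165 in BMP4 and 66 to 163 in LDN. Between BMP4 and LDN it gave 25 to 36 in FOXA2-negative and 32 to 55 in FOXA2-positive cells, between BMP4 and RA 5 to 9 and 7 to 15, between LDN and RA 4 to 11 and 10 to 35, and 3 to 7 for the interaction. Where an FOXA2-positive LDN library was left out, 1 library stood for that group.

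Member values that changed sign when a library was left out ranged as follows on the log2 scale. Between fractions, Grhl2 in RA ran from -0.43 to 0.19 and Gata3 in LDN from -1.06 to 0.94. Between BMP4 and LDN, Grhl2 ran from -0.50 to 0.27 and Grhl3 from -0.51 to 0.24 in FOXA2-negative cells, and Grhl2 from -0.42 to 0.015 in FOXA2-positive cells. Between BMP4 and RA, Grhl2 ran from -0.64 to 0.027 in FOXA2-negative cells. Between LDN and RA, Gata2 ran from -1.03 to 0.16, Dlx3 from -0.52 to 0.26 and Grhl2 from -0.59 to 0.17 in FOXA2-negative cells. In FOXA2-positive cells, Gata2 ran from -2.26 to 0.22 and Grhl3 from -0.52 to 0.73. For the interaction, Gata3 ran from -0.31 to 1.70, Dlx5 from -0.64 to 1.20, Grhl2 from -0.43 to 0.33 and Grhl3 from -2.29 to 0.061. Without both RA libraries numbered 1, Dlx5 between fractions in RA was 0.0295, Grhl2 there 0.11, and Grhl3 between LDN and RA in FOXA2-positive cells -0.16. The cause was not tested for any of these. Below 0.278 to 0.356 CPM, by library, a level cannot be told from 0, which applies to 1 Grhl3 library.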
